A study of Macaca mulatta with 8 samples.

Results

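The E85 and E80 cultures of rhesus macaque cortex cells, 5 days apart, were compared by the regions of open chromatin called in them. The members are the 32173 autosomal regions that held a peak of 1 of these stages and no peak of the other, of 58151 autosomal regions called at either stage. E85-only regions numbered 1979 and E80-only regions 30194. The other 25978 regions held peaks of both stages and served as the background. Across the series, 72358 of 112696 regions held a peak of any stage. ATAC-seq reads out accessibility through Tn5 transposase, which cuts and tags open DNA. The E85 culture was made from cortex of post-conceptional day 85 and the E80 culture from cortex of day 80. Cultures of day 50 (E50) and day 60 (E60), made alike, serve here as a separate readout. In all 4 groups frozen tissue was thawed, dissociated with papain and grown on laminin in a progenitor medium with FGF2, EGF and BDNF, with the CEPT survival cocktail at plating. Each stage was 1 culture with 2 technical libraries, so no stage has a biological replicate, and age cannot be told apart from the culture. A region is a stretch of rheMac10 into which the authors merged peaks of 1 or more sets, and a stage counts as calling it when 1 or more of its peaks lie there. Intervals below are exact Clopper-Pearson 95% intervals over regions. They cover counting error alone and compare peak sets, not ages.

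In the developing cortex, radial glia divide along the ventricle and give rise to intermediate progenitors and neurons, and later to astrocytes and oligodendrocytes. Outer radial glia, which are abundant in primates, divide away from the ventricle. Open chromatin marks promoters, many of them shared between cell types, and distal elements, which differ more from one cell type to another. In bulk ATAC-seq, a change in the share of a cell type and a change in accessibility within its cells cannot be told apart.

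Among loci with at least 4 regions, 2 or more of them E85-only, 10 loci tied for the highest E85-only share, at 50.0%. The one with the most regions was DOK5, which encodes an adaptor protein of receptor tyrosine kinase signalling. It lies on the plus strand of chromosome 10 from 89681758 to 89854483 and held 4 E85-only regions, 1 E80-only region and 3 regions called at both stages. The central 300 bases of its E85-only regions follow, to show the DNA called at E85 and not at E80. Sequences are from the Mmul_10 assembly, plus strand, and capitals mark the nuclear factor I (NFI) monomer site TTGGCA on either strand.
DOK5 region 1 chr10:89683470-89683769: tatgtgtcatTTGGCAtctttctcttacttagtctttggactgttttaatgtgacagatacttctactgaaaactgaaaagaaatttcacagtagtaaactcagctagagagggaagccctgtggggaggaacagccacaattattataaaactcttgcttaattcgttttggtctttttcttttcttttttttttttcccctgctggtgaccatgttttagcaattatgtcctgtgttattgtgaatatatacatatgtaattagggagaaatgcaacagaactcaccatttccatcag
DOK5 region 2 chr10:89716578-89716877: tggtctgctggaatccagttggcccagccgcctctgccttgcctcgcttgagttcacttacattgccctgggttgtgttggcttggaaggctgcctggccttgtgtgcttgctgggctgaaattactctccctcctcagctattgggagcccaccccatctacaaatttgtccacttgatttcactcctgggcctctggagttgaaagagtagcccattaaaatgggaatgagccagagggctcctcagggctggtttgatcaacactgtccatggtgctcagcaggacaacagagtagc
DOK5 region 3 chr10:89731313-89731612: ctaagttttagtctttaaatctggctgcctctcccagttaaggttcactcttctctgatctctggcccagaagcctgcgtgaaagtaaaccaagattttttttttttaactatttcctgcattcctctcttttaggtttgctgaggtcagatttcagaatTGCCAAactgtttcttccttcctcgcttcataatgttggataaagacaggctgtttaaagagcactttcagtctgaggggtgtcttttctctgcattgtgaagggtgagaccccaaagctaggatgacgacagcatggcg
DOK5 region 4 chr10:89827504-89827803: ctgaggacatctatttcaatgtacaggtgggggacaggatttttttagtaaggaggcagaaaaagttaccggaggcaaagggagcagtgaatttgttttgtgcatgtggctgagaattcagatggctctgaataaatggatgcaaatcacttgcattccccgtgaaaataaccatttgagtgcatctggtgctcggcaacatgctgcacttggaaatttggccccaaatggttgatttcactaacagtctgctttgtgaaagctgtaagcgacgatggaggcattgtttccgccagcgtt
Region 1 was 1201 bp wide, lay 749 bp from the nearest transcription start and was called at E50 and E60. The other three lay in introns, 34266, 48817 and 144624 bp from the nearest start. Region 2 was called at no other stage, region 3 also at E60, and region 4 at both E50 and E60. An NFI monomer site occurred in regions 1 and 3. No E80 peak number was missing around any of the 4, a check explained with the peak sets.

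The next sequences were the regions with the most matches to the AP-1 motif TGACTCA at the named E80-only and shared loci. Capitals mark TGACTCA on either strand.
CABLES1 E80-only chr18:59188220-59188519: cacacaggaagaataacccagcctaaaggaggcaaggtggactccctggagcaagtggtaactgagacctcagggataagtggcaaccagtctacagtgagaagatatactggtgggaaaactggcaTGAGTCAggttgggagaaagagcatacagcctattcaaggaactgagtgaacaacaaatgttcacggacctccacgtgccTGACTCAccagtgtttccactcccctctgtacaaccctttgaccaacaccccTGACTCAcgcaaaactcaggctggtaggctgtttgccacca
ZHX3 shared chr10:76589175-76589474: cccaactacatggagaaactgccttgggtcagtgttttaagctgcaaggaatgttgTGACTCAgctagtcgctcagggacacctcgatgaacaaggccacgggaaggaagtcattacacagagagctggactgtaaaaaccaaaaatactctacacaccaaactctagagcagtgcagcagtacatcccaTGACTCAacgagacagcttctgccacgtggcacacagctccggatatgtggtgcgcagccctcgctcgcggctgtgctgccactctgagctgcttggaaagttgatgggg
The CABLES1 region, 470 bp wide and intronic, held 3 AP-1 matches and was also called at E60. In ZHX3, which encodes a zinc finger and homeobox protein, a shared intronic region of 515 bp held 2. No E85 number was missing around the CABLES1 region.

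The E85 set had 30701 deposited peaks and the E80 set 60278. The E50 set had 19833 and the E60 set 61956. The call rates follow these sizes. Of all autosomal regions called at E85 or E80, 3.40% were E85-only, 51.9% E80-only and 55.3% discordant. Of the E85 regions 92.9% were also called at E80, whereas 46.2% of the E80 regions were also called at E85. E85-only regions made up 6.15% of the discordant ones (interval 5.89 to 6.42). Since the calls chose the members, these shares are descriptions. Absence of a call does not show closed chromatin, since weak openness can miss the threshold of a peak caller.

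Peak numbers gave a second view of what an absent call means. In each set the numbers rose along every sequence, for 100% of neighbouring peaks, yet 26.5% of the numbers were missing at E85 and 16.4% at E80. A number missing between the nearest deposited peaks on either side of a region therefore belonged to a peak numbered somewhere in that interval and not found in the table. An E80 number was missing around 33.9% of the E85-only regions (interval 31.80 to 36.02). Among all intervals between neighbouring E80 peaks, reweighted to the same lengths, the share was 10.9%. An E85 number was missing around 14.1% of the E80-only regions (interval 13.7 to 14.5), against 11.1% of E85 intervals of like length. E85-only promoters stood highest, at 77.4% (240 of 310), while E85-only distal regions were at 25.8%. Among E85-only promoters that were also called at E50, 92.5% (161 of 174) lay in such an interval. The exact place of a missing peak is not known, and the same number can stand beside several regions of an interval, so values are given below with and without these regions. The check could be made for 1977 E85-only and 30155 E80-only regions, those with a deposited peak of the other stage on each side. The few others are left out of the values without missing numbers too. On that basis 1307 E85-only and 25916 E80-only regions remained, and the E85-only share of discordant regions was 4.80% (interval 4.55 to 5.06).

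**Figure D1:**
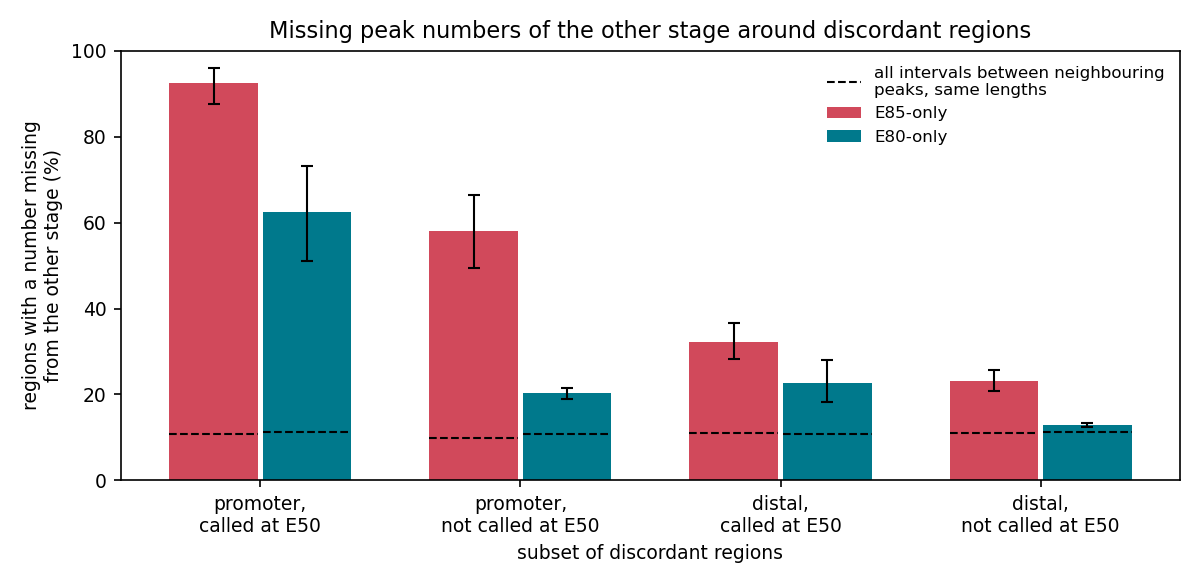
Share of E85-only and E80-only regions (bars, %, with exact 95% intervals) that lay in an interval where a peak number of the other stage was missing, by position and E50 call. Dashed lines give the share over all intervals of the other stage reweighted to the same lengths. E85-only promoters called at E50 reach 92.5% against a line at 10.7%, and E80-only ones 62.5% against 11.3%.

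Discordant regions were narrow and mostly distal. The median width was 408 bp for E85-only and 367 bp for E80-only regions, against 828 bp for shared ones. The E80-only share of regions was 86.5% at widths up to 250 bp and 11.8% above 2000 bp. Width is not independent of the classes. A region merges the peaks of all sets that fall in it, so one holding peaks of both stages can be wider by the merging alone. The part of merging in these widths was not tested. Promoters, here regions within 1000 bp of an annotated start (protein-coding and lncRNA genes), made up 15.7% of E85-only regions (interval 14.1 to 17.4) and 12.7% of E80-only regions (12.3 to 13.1). Among shared regions they made up 40.9%. Without regions in intervals with a missing number, the order of the discordant classes turned round, with promoters at 5.36% of E85-only regions (interval 4.20 to 6.72) and 11.7% of E80-only regions (11.3 to 12.1). Introns held 41.7% of E85-only and 43.5% of E80-only regions, and intergenic DNA 36.8% and 37.3%. Regions that overlapped a transcription start were E80-only in 19.3% of cases, and those over 100000 bp away in 65.0%. The median GC content of the central 300 bases was 49.0% in E85-only and 49.7% in E80-only regions, and 58.0% in shared ones.

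The calls at E50 and E60, which the choice of members did not use, differed between the classes. At E50, 33.6% of E85-only regions were called (interval 31.5 to 35.7) and 1.27% of E80-only regions (1.145 to 1.401), against 64.9% of shared regions. At E60 the order was the other way, with 33.1% of E85-only regions called and 69.0% of E80-only regions, against 95.8% of shared regions. Regions called at E50 and not at E60 made up 20.8% of the E85-only class, 0.146% of the E80-only class and 1.40% of the shared class. Neither earlier stage called 46.1% of E85-only and 30.9% of E80-only regions. Set size moved with this pattern: E50 and E85 were the smaller sets, E60 and E80 the larger ones. Its part in the result was not tested. Without regions in intervals with a missing number, the E50 shares were 26.3% for E85-only (interval 23.9 to 28.8) and 1.02% for E80-only regions, and the E60 shares were 37.1% and 68.7%.

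**Figure D2:**
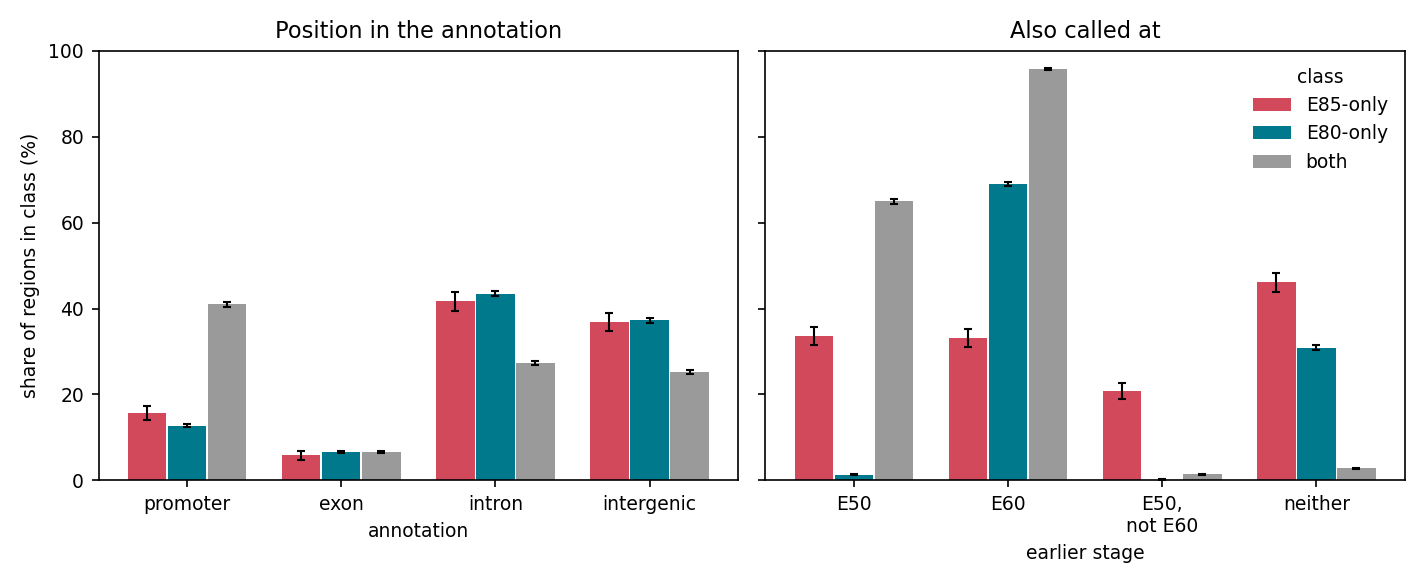
Share of E85-only, E80-only and shared (both) regions (%, y axis) by position in the annotation (left) and by call at the earlier stages (right), with exact 95% intervals. Promoters are most frequent among shared regions (40.9%), and E50 calls among E85-only regions (33.6%) exceed those among E80-only regions (1.27%).

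Gene promoters gave the clearest case of missing numbers. Of 13011 autosomal protein-coding genes with a promoter called at either stage, 197 were called at E85 alone, 1.51%, and 2195 at E80 alone, 16.9%. Around 186 of the 197 promoters called at E85 alone an E80 number was missing (94.4%, interval 90.2 to 97.2). Of those called at E80 alone, 573 had a missing E85 number (26.1%). Examples from the E85-alone group are SDHA, a subunit of succinate dehydrogenase, PRPF8, a core splicing factor, EIF4A1, a translation initiation helicase, and TFRC, the transferrin receptor. Each of these was called at E50 and E85, not at E60 or E80, and had a missing E80 number. They were chosen after their values were seen, and do not stand for a theme of the group. In the group as a whole 137 of 197 were also called at E50 (69.5%) and 116 at E50 and not at E60 (58.9%). The 146 E85-only promoter regions with that same E50 call and no E60 call showed a missing E60 number in 138 cases and a missing number at both E60 and E80 in 137. For most of these promoters, therefore, the table does not show that no peak was found at E80. Only 11 promoters called at E85 alone had no missing E80 number, and 2 of them were called at E50. Named genes among the 11 are PRPH, which encodes the neuronal intermediate filament peripherin, SERPINA3, a protease inhibitor secreted by reactive astrocytes, CD180, PEBP4, PRSS22, FAM240A, MFSD13A and ZNF556. PRPH was also called at E50 and not at E60, and SERPINA3 at no other stage.

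Of the 2195 genes with a promoter called at E80 alone, 2043 were also called at E60 (93.1%) and 70 at E50 (3.19%). In the 1617 with no missing E85 number, 1518 were called at E60 (93.9%) and 20 at E50 (1.24%). Gene lists for cell types and pathways were counted to describe them. Over the 25 lists, 280 of the 355 listed genes had an autosomal promoter called at either stage. Of these, 1 was called at E85 alone and 64 at E80 alone (22.9%, interval 18.1 to 28.2), against 16.9% over all genes. Single lists hold few genes, so their counts are descriptions, to be read beside the 81.6% of all gene promoters called at both stages and the 16.9% at E80 alone. Of the 64, 59 were also called at E60 and 1 at E50, and 11 had a missing E85 number. The gene at E85 alone was STK3, which encodes the Hippo pathway kinase MST2. Its promoter was called at neither E50 nor E60, and an E80 number was missing around it.

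Of the 8 cortical identity genes, 7 had a promoter called at both stages, near the share over all genes. EMX1, EMX2, LHX2, OTX1, PAX6 and NR2E1, transcription factor genes of the telencephalon, were among the 7, and SIX3 was called at E80 alone. Of the midbrain and hindbrain genes, PAX5 had a promoter call at both stages and EN2 and GBX2 at E80 alone, the last with a missing E85 number. All 12 radial glia genes, among them SOX2, VIM, NES, HES1 and SLC1A3, had promoters called at both stages. The same held for all 11 outer radial glia genes, among them HOPX, PTPRZ1, TNC and FAM107A. In the distal regions of the radial glia list, 2 were E85-only, 15 E80-only and 26 shared, so 34.9% were E80-only (interval 21.01 to 50.93) against 60.8% of all autosomal distal regions. A low share was not particular to this list: astrocyte genes stood at 44.6% (32.3 to 57.5). Outer radial glia genes stood at 48.8% (33.3 to 64.5) and cortical identity genes at 41.7% (15.2 to 72.3), intervals that include the 60.8%. GLI3, a mediator of hedgehog signalling, held no E85-only, 4 E80-only and 10 shared regions, and SOX2, a neural stem cell factor, 1, 4 and 6.

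Lists of intermediate progenitor and neuronal genes held between 1 and 6 promoters called at E80 alone and none at E85 alone, beside 16.9% and 1.51% of all promoters. Of 9 intermediate progenitor genes with a call, 3 were called at E85 and 9 at E80. Those at E80 alone were NEUROG1, NEUROG2 and NEUROD1, proneural factors, INSM1, a zinc finger factor of basal progenitors, and ELAVL4 and PPP1R17. EOMES, the defining factor of these progenitors, was called at both stages, with HES6 and NEUROD4. A missing E85 number stood beside NEUROG1 alone of the 6, and none of the 6 was called at E50, while all 6 were called at E60. INSM1 held no E85-only, 4 E80-only and no shared regions, and NEUROD1 none, 3 and none. In the deep-layer list, 4 promoters were called at E85 and 7 at E80. BCL11B, the corticospinal neuron factor CTIP2, TBR1, a factor of layer 6 neurons, and ZFPM2 were at E80 alone, with no missing E85 number. BCL11B held no E85-only, 5 E80-only and 1 shared region. For the upper-layer list the counts were 7 at E85 and 8 at E80, with MDGA1 at E80 alone, a share below that of all genes. Pan-neuronal genes numbered 9 at E85 and 12 at E80, with STMN2, RBFOX3 and CELF4 at E80 alone. RBFOX3 and NCAM1 each held 2 E85-only regions, beside 11 and 4 E80-only ones. Of distal regions in the pan-neuronal list 59.2% were E80-only (interval 48.8 to 69.0). The upper-layer share was 63.4% (46.9 to 77.9), the deep-layer share 65.8% (48.6 to 80.4) and the intermediate progenitor share 85.7% (6 of 7). Each of these intervals included the 60.8% over all distal regions.

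Interneuron genes were called at E85 for 6 promoters and at E80 for 11. GAD1 and GAD2, the enzymes of GABA synthesis, DLX6 and LHX6, factors of ventral forebrain neurons, and ERBB4, a neuregulin receptor, were at E80 alone, none with a missing E85 number. GAD1 held no E85-only, 7 E80-only and no shared regions. DLX1 and DLX2 were called at both stages. Of the list's 22 distal regions 18 were E80-only, 81.8% (interval 59.7 to 94.8), an interval that includes the 60.8% over all distal regions. For the potassium channel list, 7 promoters were called at E85 and 12 at E80, and 98 of 131 distal regions were E80-only, 74.8% (66.5 to 82.0), against the same 60.8%. KCNMA1, KCNQ3, KCNB2, KCNH7 and KCNIP4 had promoters at E80 alone, none with a missing E85 number. KCNQ3, a subunit of the neuronal M current, held no E85-only, 19 E80-only and 1 shared region. Of the 108 E80-only regions of the list, promoters included, KCNMA1 held 30 and KCNQ3 19. The interval takes no account of this, nor of the 25 lists counted. In the postsynaptic and adhesion list the promoters numbered 9 at E85 and 14 at E80, and 67.8% of distal regions were E80-only (61.4 to 73.8), the lower bound lying just above the 60.8%. SHANK1, SHANK3 and DLGAP1, scaffold genes of the excitatory synapse, LSAMP and CDH13 were at E80 alone, and an E85 number was missing around LSAMP.

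Glial and non-neural lists were counted in the same way, with no test between lists. For astrocyte genes 11 promoters were called at E85 and 14 at E80, with SLC1A2, a glutamate transporter, NDRG2 and APOE at E80 alone, the last with a missing E85 number. GFAP, the astrocyte intermediate filament, held no discordant region and 4 shared ones. NFIA held no E85-only, 7 E80-only and 10 shared regions, and NFIX none, 9 and 11. Oligodendrocyte lineage promoters numbered 4 at E85 and 8 at E80, and CSPG4, NKX2-2, PCDH15 and LHFPL3 were at E80 alone. No promoter of the 10 endothelial genes was called at E85, against 4 at E80: KDR, a VEGF receptor, CLDN5, a tight junction protein, and the factors ERG and SOX18. Neither stage called a promoter of the 12 microglia genes. Of the mesenchyme and mural genes, 4 promoters were called at E85 and 6 at E80, with TWIST1 and TBX18 at E80 alone. The part of endothelial, mesenchymal or neuronal cells in the E80-only class was not tested. Cell cycle promoters numbered 13 at E85 and 14 at E80, and ribosomal ones 21 and 22, with none at E85 alone in either list.

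**Figure D3:**
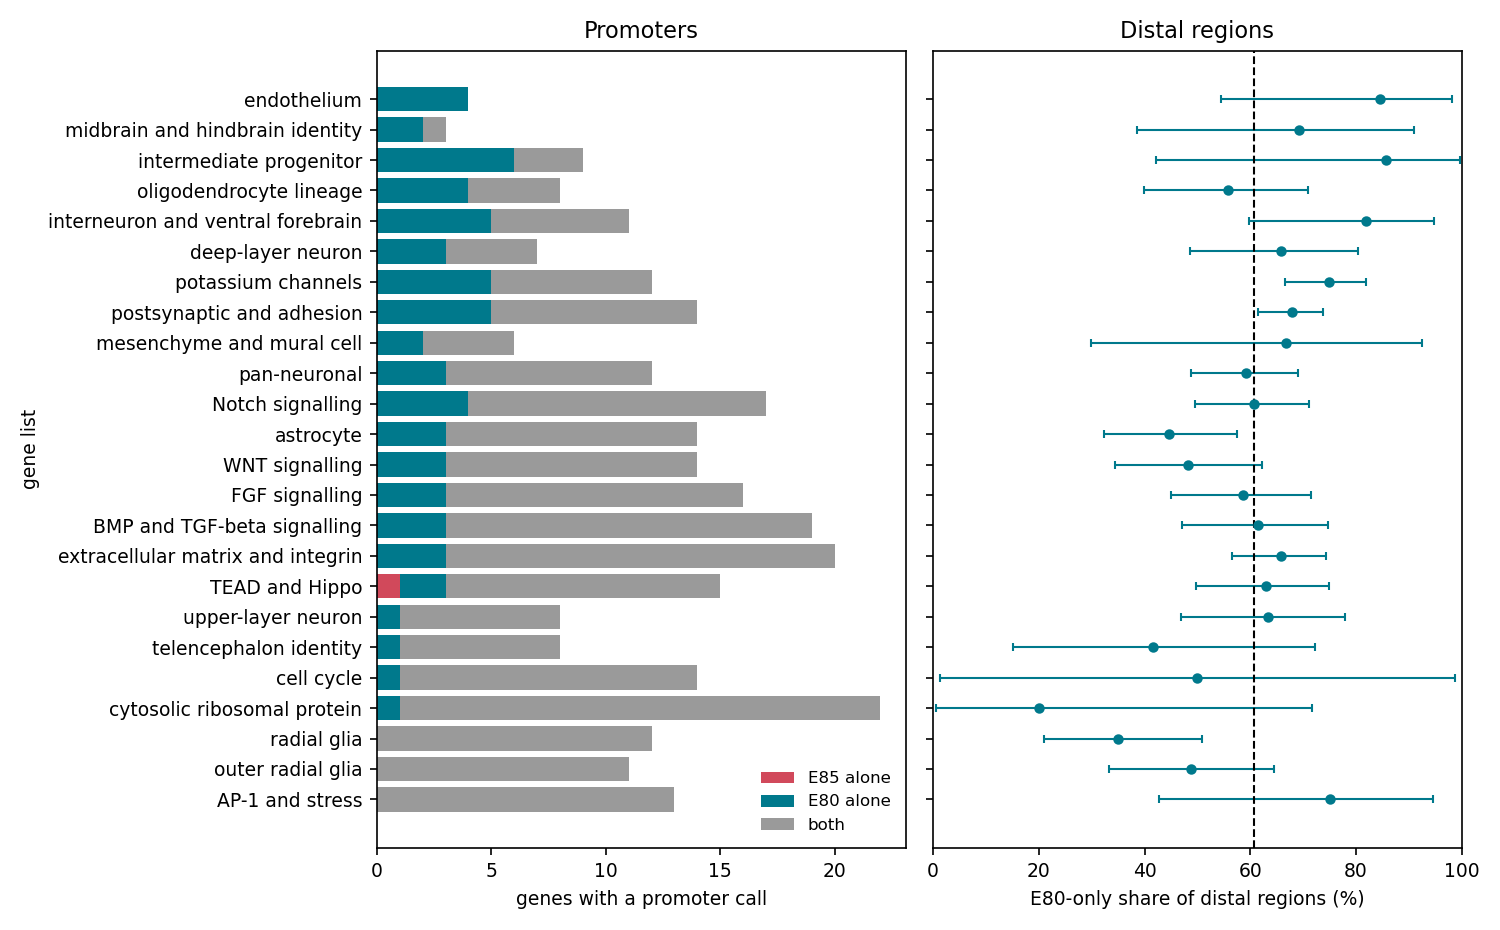
Left, genes of each list (x axis, number of genes) with a promoter called at E85 alone, at E80 alone or at both; right, E80-only share of the distal regions at those genes (%, exact 95% intervals), with the share over all autosomal distal regions (60.8%) as a dashed line. Endothelial promoters were called at E80 alone in 4 of 4 genes, and radial glia promoters at both stages in 12 of 12.

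In the signalling lists the share of promoters called at both stages lay near the 81.6% over all genes. Of Notch genes 13 were called at E85 and 17 at E80, with the receptor gene NOTCH3, the ligand genes DLL3 and JAG2, and the target HEYL at E80 alone. WNT genes numbered 11 at E85 and 14 at E80: the ligand genes WNT5A and WNT7B and the nuclear effector LEF1 were at E80 alone, the last with a missing E85 number. At the WNT loci 6 of 54 distal regions were E85-only, 11.1% (interval 4.19 to 22.6), against 3.85% of all distal regions. It was the highest such share of the 25 lists, and the interval takes no account of that. The oligodendrocyte lineage list came next, at 9.30% (2.59 to 22.1), an interval that includes the 3.85%. The 6 WNT regions were 2 at AXIN2, a target and inhibitor of the pathway, and 1 each at TCF7L1, TCF7L2, WNT3A and WNT5A. An E80 number was missing around 1 of the 2 at AXIN2 and around those at TCF7L1 and WNT5A. AXIN2 in all held 2 E85-only, 3 E80-only and 1 shared region. For FGF genes the counts were 13 at E85 and 16 at E80, with the receptor gene FGFR3 and the factors FGF2 and FGF14 at E80 alone. BMP and TGF-beta genes numbered 16 and 19, with BMP4, BMPR1B and SMAD9 at E80 alone. In the TEAD and Hippo list, 13 promoters were called at E85 and 14 at E80, with TEAD3 and TEAD4 at E80 alone. Matrix and integrin genes numbered 17 and 20, with COL18A1, LAMA2 and LAMB1 at E80 alone. Around FGFR3, BMP4, TEAD4, COL18A1 and LAMA2 an E85 number was missing.

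Loci were ranked by share, a locus being a protein-coding gene with 5000 bp upstream. Of 15161 loci with a region, 635 held at least 10, and their median E80-only share was 56.2%. The 12 with the highest share were GFRA1, KCNQ3, TMEM132D, CNTNAP2, ROBO1, PAPPA, PDE10A, FGF14, PPP2R2C, CSMD2, CABLES1 and LDLRAD3. They were chosen on these calls, and the values describe them. GFRA1, the GDNF co-receptor gene on chromosome 9 (116549359 to 116771215), held 10 regions, all E80-only, and 9 of them were called at E60. TMEM132D on chromosome 11 (128910439 to 129742111) held no E85-only, 16 E80-only and 1 shared region. ROBO1, the SLIT receptor gene on chromosome 2 (192125380 to 193292671), held none, 13 and 1, and all 13 were called at E60. CNTNAP2, a neurexin family adhesion gene on chromosome 3 (172532326 to 174787817), held the same counts, with 9 of the 13 called at E60. PAPPA, a protease gene on chromosome 15 (26410324 to 26660133), held none, 11 and 1, with 3 of the 11 called at E60. FGF14, an intracellular fibroblast growth factor gene, had 4 of its 10 E80-only regions called at E60. CABLES1 alone of the 12 held an E85-only region. All 10 E80-only regions at GFRA1, all 10 at PPP2R2C and 13 of the 18 at CSMD2 lay in an interval with a missing E85 number, while no region of KCNQ3, TMEM132D, CNTNAP2, ROBO1, PAPPA or FGF14 did. The ranking ended within a tie at 90.0%, which PCNX2, SNTG1, SULF2 and TG shared. Together the 12 loci held 149 E80-only regions, of which 111 were called at E60 (74.5%) and 1 at E50, against 69.0% and 1.27% of all E80-only regions.

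The 12 loci with the lowest discordant share included DPYD, ZHX3, SYNE3, WWP2, ZNF608, SOGA1, CUEDC1, LIMCH1, DAPK1, FAM107A and LMNA. CUEDC1 on chromosome 16 (38849205 to 38943459) held no E85-only, 4 E80-only and 14 shared regions. FAM107A, an outer radial glia marker on chromosome 2 (114744864 to 114808544), held none, 3 and 9. ZNF608 held 1, 1 and 8, and LMNA, the lamin A and C gene, 1, 2 and 9. Of the 116 shared regions at these loci 74 were called at E50 (63.8%), against 64.9% of all shared regions. Just outside stood RGS3, at 27.3% discordant.

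**Figure D4:**
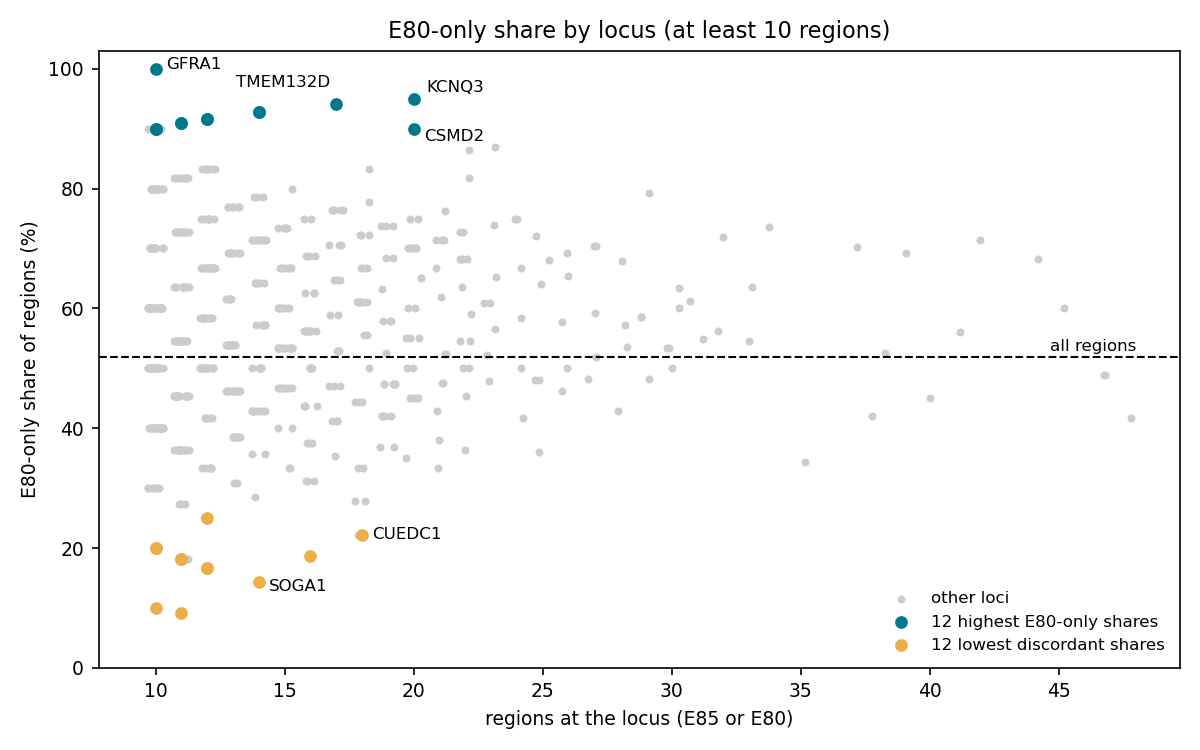
Each point is a protein-coding locus with at least 10 regions, by its number of regions (x axis, spread sideways by a small random amount for the grey points) and the E80-only share of them (%, y axis); the dashed line is the share over all autosomal regions (51.9%). GFRA1 stands at 100% and CUEDC1 at 22.2%.

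E85-only regions were thin on the ground at single loci: 14032 of 15161 loci held none, and 341 held more E85-only than E80-only regions. Ranked by E85-only share, with at least 4 regions and 2 of them E85-only, the first 10 loci were DOK5, AQR, ARHGEF38, ATP13A4, ETFA, KATNAL2, RANBP3L, SFRP1, STK3 and TRIM71, each at 50.0%. PRKD1 and TNK2 followed at 42.9%. At DOK5 none of the 4 E85-only regions had a missing E80 number, and 8 of its regions were called at E60 and 3 at E50, 7 at E85 and 4 at E80. SFRP1, a secreted WNT inhibitor of radial glia on chromosome 8 (41844693 to 41888326), held 2 E85-only intronic regions of 386 and 583 bp, both called at E60, and 2 shared regions. ARHGEF38 and ATP13A4, a P-type ATPase gene, each held 2 narrow E85-only regions of 174 to 306 bp, called at no other stage. At KATNAL2 and TRIM71 both E85-only regions had a missing E80 number, as had 1 of 2 at AQR, ETFA, RANBP3L and STK3. At AQR, a splicing helicase gene, that region was the promoter, 1386 bp wide and called at E50 and E60.

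Sequence motifs were scanned within 150 bp of the centre of distal regions, on both strands, with each motif's reversed letters as a control. TGACTCA, the AP-1 motif of FOS and JUN dimers, occurred in 7.07% of E85-only regions (interval 5.89 to 8.41) and 36.3% of E80-only regions (35.7 to 36.8), against 19.7% of shared regions and 29.3% of all 43368 distal regions. The reversed letters occurred in 5.16%, 7.69% and 5.47% of the E85-only, E80-only and shared classes. Shared regions reweighted to the GC content of the E85-only class were at 21.7%. Without regions in intervals with a missing number, the AP-1 share was 4.28% in E85-only regions (interval 3.23 to 5.57) and 36.6% in E80-only regions. E80-only regions called at neither E50 nor E60 were at 43.7%, and those called at E60 at 32.5%. In E80-only regions the share was 41.2% at widths up to 300 bp and 9.83% above 1000 bp, where E85-only regions were at 9.89% (9 of 91). The promoters of FOS, FOSB, FOSL1, FOSL2, JUN, JUNB, JUND, and ATF3 were called at both stages, as were all 13 of the AP-1 and stress list that had a call.

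The NFI monomer site and the STAT motif were more frequent in E85-only than in E80-only regions. They were singled out after all 30 motifs had been scanned, 7 of which had an E85-only interval above the E80-only interval and 3 below. The 7 also included the POU motif ATGCAAAT, at 4.86% of E85-only and 2.76% of E80-only regions. The RFX motif GTTGCCA stood at 7.01% and 5.32%, and the NFY motif GCCAATC at 3.60% and 2.40%. The E-boxes CAGCTG and CAGGTG complete the 7. Shared regions held RFX in 6.47%, NFY in 3.23%, CAGCTG in 25.3% and CAGGTG in 17.1%, each within the E85-only interval. For these motifs the E85-only share was therefore not set apart from that of shared regions. POU occurred in 3.21% of shared regions, below the E85-only interval. Reweighted to the GC content of the E85-only class, it stood at 3.91%, just inside that interval (lower bound 3.87). The NFI monomer site TTGGCA occurred in 34.1% of E85-only (interval 31.8 to 36.4) and 21.1% of E80-only regions (20.6 to 21.6), against 24.0% of shared regions and 22.6% of all distal regions. Its reversed letters occurred in 2.46%, 2.73% and 2.87%, but they contain CG, which is rare in the genome, and so are a weak control. The full palindromic site, TTGGC and its inverted copy 5 bases apart, was rare, in 1 of 1668 E85-only, 23 of 26357 E80-only and 16 of 15343 shared regions. With 1 E85-only match, these counts are too few to show whether its share differed between the classes. TTCCNGGAA, the motif of STAT dimers, occurred in 4.20% of E85-only (3.29 to 5.27) and 1.21% of E80-only regions (1.08 to 1.35), against 1.44% of shared and 1.41% of all distal regions. Its reversed letters occurred in 1.20%, 0.721% and 0.886%. Some STAT matches lay in near-identical sequence: without regions that shared 30 bases with another region, the share was 2.65% in E85-only (1.90 to 3.59) and 1.20% in E80-only regions, and the NFI monomer site was at 35.3% and 21.4%. The filter left 40 of 1512 E85-only regions with STAT, against 70 of 1668 before it. E85-only regions called at E50 held STAT in 6.94% of cases and the rest in 3.06%. That split, and the values without missing numbers below, kept the regions that share 30 bases. The monomer site was as frequent in E85-only regions called at neither E50 nor E60 (34.5%). Without regions in intervals with a missing number, E85-only regions held the NFI monomer site in 37.6% and STAT in 4.93%, against 21.2% and 1.24% of E80-only regions. CAGATG, an E-box, and AGATAA, the GATA motif, were less frequent in E85-only than in E80-only regions, at 18.0% against 23.4% and 7.01% against 9.88%. Shared regions held CAGATG in 21.3%, above the E85-only interval (16.2 to 19.9), and AGATAA in 7.53%, within it (5.84 to 8.35). The other E-boxes scanned stood the other way, CAGCTG at 26.8% of E85-only and 23.7% of E80-only regions, and CAGGTG at 17.8% and 14.5%. The GATA letters were rarer than their own reversed control in all 3 classes.

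**Figure D5:**
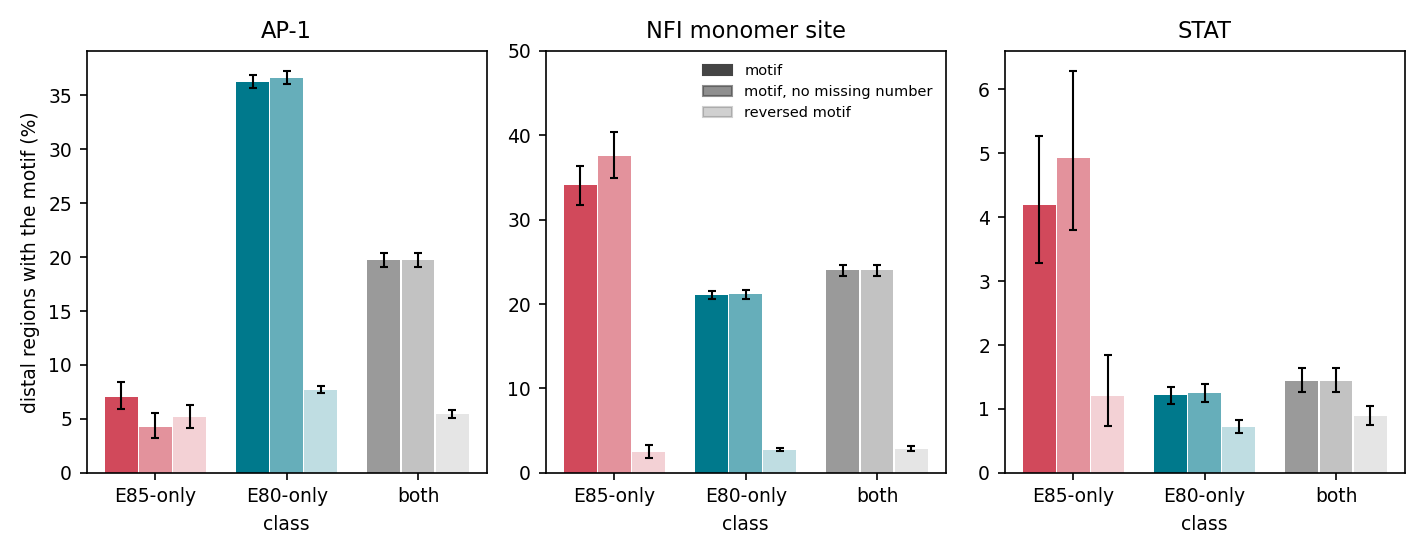
Share of distal regions (%, y axis, own scale in each panel) with the AP-1, NFI monomer site or STAT motif in E85-only, E80-only and shared (both) regions: all regions (dark), regions with no missing number of the other stage (mid tone) and reversed letters (pale), with exact 95% intervals. AP-1 stands at 7.07% of E85-only and 36.3% of E80-only regions, STAT at 4.20% and 1.21%.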

How the data were processed

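Per the labels' protocols, each of the 4 stages was 1 culture, sampled as 2 technical libraries for Omni-ATAC. Trimming and alignment tools named in the submitters' processing notes are cutadapt 4.4, Bowtie2 2.5.1 and SAMtools 1.15, with the build rheMac10. How peaks were called, with which cut-off, and what the tag nativeFiltered on their names stands for is not given in the sources used here. What the authors deposited is a single table of merged regions. Peak names in it carry the stage and are the only measurement used, of no numeric unit (other). Its 8 unnamed value columns could not be tied to libraries and were not used, so depth per library is unknown. Lifted peaks of sets the labels do not define share some regions and can set their width and centre.

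Every sequence name matched the report of Mmul_10, the assembly behind rheMac10, and its NCBI gene models gave promoters (within 1000 bp of a start), exons, introns and loci. Coordinates count from 1. A locus is a gene body with 5000 bp upstream. Shares have Clopper-Pearson 95% intervals, no test was run, and regions are not replicates. Motifs were counted in 300 bases around each centre, and shared regions were reweighted in GC bins of 5%. The members, lists and motifs were chosen with earlier results of these data known. The check of peak numbers, the filter on shared 30 bases, the split by E50 call, and the stress on NFI and STAT came after values of the comparison had been seen.

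Named loci have a gene symbol that is no placeholder: the 12 of highest E80-only share and the 12 of lowest discordant share with at least 10 regions, the 10 of highest E85-only share with at least 4 regions and 2 E85-only, up to 4 leading members of each list, and list members with a promoter called at 1 stage alone. Ties went to more regions, then by symbol. Other genes are marked where they were chosen after their values were seen, or illustrate a list. TLE4, RPS6, TUBB3 and AMOTL2 were not found in the annotation under these names. Some withheld items are not reported here. The matching of the AP-1 motif and the coverage of the intervals were tested on simulated sequences and counts. The counting of calls, classes, loci, promoters and missing numbers was not tested in this way. Python 3.11.15, pandas 2.3.3, NumPy 2.4.6, SciPy 1.17.1 and matplotlib 3.10.9 were used.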

Additional observations from a re-analysis of the deposited data

How the results depend on the processing

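Over 24 results and 120 alternatives, 56 values stayed within the interval of the value reported and 64 moved outside it. All are shares or counts, so a change of sign was not possible. The order of the 3 classes held under each setting run for E50, E60, AP-1 and the NFI monomer site (NFI), and for STAT except that E80-only regions passed shared ones when regions called at E50 were left out. The promoter shares of E85-only and E80-only regions did not keep their order: leaving out regions in intervals with a missing number gave 5.36% and 11.7%, a setting added after the data were seen, as were all settings for E50, NFI and STAT. The same setting gave 4.80% E85-only among discordant regions, 51.2% discordant, E60 calls of 37.1% in E85-only regions, E50 calls of 26.3% and 1.02% in E85-only and E80-only regions, AP-1 at 4.28% and NFI at 37.6% in E85-only regions. The E85-only share of discordant regions was 7.498% in promoters, 5.87% without lifted peaks and 5.74% without regions that had a call of the other stage within 1000 bp. The discordant share was 28.1% in promoters, 64.6% in distal regions, 65.1% in regions of at most 1000 bp, 80.2% without lifted peaks, 53.4% without nearby calls and 37.2% over peaks. Promoter shares in E85-only, E80-only and shared regions were 11.0%, 9.74% and 21.8% at up to 1000 bp and 8.07%, 6.11% and 12.1% without lifted peaks. Without nearby calls the E80-only share was 11.4%. E60 shares without lifted peaks were 24.6%, 54.2% and 86.4% in these classes, and at up to 1000 bp 67.0% and 93.7% in E80-only and shared regions. E50 shares were 29.4%, 0.951% and 53.3% at up to 1000 bp and 24.4%, 0.619% and 42.8% without lifted peaks. With 75 bp to each side AP-1 was at 4.32%, 27.9% and 12.4%, NFI at 23.0%, 11.97% and 13.5%, and STAT at 2.34%, 0.653% and 0.782%. With 250 bp AP-1 was at 9.83%, 40.3% and 25.03%, NFI at 44.8%, 30.6% and 33.8%, and STAT at 1.92% and 2.31% in E80-only and shared regions. In E80-only and shared regions AP-1 was at 45.8% and 27.2% without lifted peaks and 37.4% and 21.5% at up to 1000 bp. Leaving out regions that share 30 bases put AP-1 at 35.5% in E80-only and STAT at 2.65% in E85-only regions. Leaving out regions called at E50 put STAT at 3.06% in E85-only and 1.06% in shared regions, and NFI at 22.5% in shared regions. With the nearest start in place of the gene body, the 12 loci of lowest share were 34.3% discordant and the 10 of highest E85-only share 31.6% E85-only. The causes of these moves were not tested. No paired analysis was possible because the calls are given per stage and the 8 value columns carry no library names, and leaving out a replicate was not run for the same reason. Depth of the libraries is unknown, and 1 culture a stage limits every comparison.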

Other observations

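Chromosomes differed in the balance of the classes. Chromosome 19 had the lowest E80-only share, 37.1% of 2313 regions (exact 95% interval 35.1 to 39.1), and 3.50% E85-only, with 43.9% of its regions at promoters and a median GC content of 62.0%. On chromosome 18 the E80-only share was 60.0% of 1208 regions (57.2 to 62.8) and the E85-only share 2.98%, with 20.1% at promoters and a median GC content of 49.7%.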
